A study of Mus musculus with 12 samples.

Results

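The genes described here are 44 genes known from endothelial cells, the cells that line blood vessels, measured in RNA of cardiomyocytes isolated from the mouse left ventricle. They were listed by name, and a gene was found through the symbols of the array's probe annotation, in which 43 of the 44 had a probe and Tspan7 had none. A gene counted as measured when a probe of it passed the scanner's detection limit (p under 0.01) on 3 or more of the 12 Illumina bead arrays, which left 36 members among 8746 measured named genes. Kdr and Ushbp1 reached that limit on 2 arrays each, and Erg, Fabp4, Ecscr, S1pr1 and Clec14a on 0 arrays, so nothing is reported of their levels. Of the 36 measured members 26 were detected on all 12 arrays, 29 had a detected signal in sham shControl on 1 array or more, and Bcl6b and Fli1 were detected only on TAC shControl arrays, through which they passed the limit.

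All mice were C57Bl6/J males to which the labels give an age of 8 weeks, and every mouse had been infected as a pup, at 10 days, with the adeno-associated virus AAV9, so the controls carried a virus too. The virus encoded the hairpin sh-Uhrf1 #1 (shUhrf1) or a scrambled hairpin (shControl), and the labels name no other hairpin against Uhrf1. Surgery followed 2 months after infection and was either transverse aortic constriction (TAC), which narrows the aorta and loads the left ventricle with pressure, or a sham operation, and cells were taken 1 week later. The 4 groups are TAC shUhrf1, TAC shControl, sham shUhrf1 and sham shControl, with 3 arrays each. According to the series' design text 4 samples were analysed in triplicate, and nothing states that separate animals stand behind a triplicate. The p-values therefore cover only array-to-array spread, and that spread may be technical.

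Endothelial cells form the inner wall of capillaries, arteries, veins and lymphatics, and in the heart capillaries run alongside the muscle cells. Their identity is held by transcription factors of the ETS, SOX and KLF families, and their walls are sealed by junction proteins such as claudin-5 and VE-cadherin. Receptors for VEGF and for angiopoietins control their growth, and capillary proteins such as Gpihbp1 and the aquaporins move lipid and water across the wall. Cardiomyocytes are not the usual source of these transcripts. In RNA of a cell preparation, more endothelial cells and more of each RNA per endothelial cell cannot be told apart.

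The preparations carried the RNA of their labelled cell type. All 13 cardiomyocyte markers with a named probe, such as Myh6 and Tnni3, were detected on all 12 arrays, and Tnnt2 had no named probe. Between 12309 and 14908 of 45281 probes were detected per array. The measured Uhrf1 probe gave log2 intensities of 4.68, 5.34 and 6.06 on the TAC shUhrf1 arrays, 6.14, 7.11 and 6.89 on the TAC shControl arrays, 4.74, 4.41 and 4.46 on the sham shUhrf1 arrays and 4.98, 4.89 and 4.76 on the sham shControl arrays. Uhrf1 was lower with shUhrf1 after TAC, with a log2 difference of -1.35 ± 0.30 (SE, limma, adjusted p = 0.0355), and the 2 hairpins were not told apart in sham cells (-0.34 ± 0.30, adjusted p = 0.655), where the gene is near the detection limit. A second Uhrf1 probe was detected on 0 arrays.

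One array stands apart from its group for these genes. Array 2 of sham shUhrf1 was below both other arrays of its group for 32 of the 36 measured members, by a median of -1.34 on the log2 scale against the mean of the other 2. On that array the mean deviation of the members from their own 12-array means was -1.09, against 0.08 and 0.16 on arrays 1 and 3 of the group. It was also the lowest array of the 12 for the fibroblast markers (-1.51) and the macrophage markers (-1.40), but not for the cardiomyocyte markers (0.09). Array 1 of TAC shControl was below both others of its group for 31 members, by a median of -0.76. Counts and medians of the comparisons these arrays enter are also given without them.

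RefSeq promoter sequences (build GRCm38.p6) were at hand for 20 of the 44 members, with 25 start sites. The 120 bases before the start of 4 members are printed because they show the range from several matches to none of the ETS core letters GGAAG, searched on both strands, in genes that carry the results below. Tie1 (chr4:118489850-118489969, minus strand) has 3 matches in this window. Egfl7 (chr2:26580963-26581082, plus strand, the first of its 3 starts) and Robo4 (chr9:37401852-37401971, plus strand) have 2 each, and Cldn5 (chr16:18776727-18776846, plus strand) has 0. Each sequence reads 5′ to 3′ on the gene's strand, ends at the base before the start site, and has the matches in capitals.
Tie1: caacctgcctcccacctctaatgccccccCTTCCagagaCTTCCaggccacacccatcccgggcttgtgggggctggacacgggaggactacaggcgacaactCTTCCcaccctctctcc
Egfl7: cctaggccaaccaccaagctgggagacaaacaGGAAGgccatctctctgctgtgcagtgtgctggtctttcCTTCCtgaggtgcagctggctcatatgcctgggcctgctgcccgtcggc
Robo4: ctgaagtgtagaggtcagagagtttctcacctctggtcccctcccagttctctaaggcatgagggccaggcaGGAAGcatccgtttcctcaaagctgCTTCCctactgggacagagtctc
Cldn5: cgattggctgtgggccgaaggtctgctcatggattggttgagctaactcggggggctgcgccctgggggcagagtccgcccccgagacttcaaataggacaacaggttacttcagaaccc
In the 250 bases before the start, GGAAG on either strand was present in 18 of 25 member promoters (72%) and in 64.1% of 32851 mouse promoters. The SOX letters ACAAAG or ACAATG were present in 6 member promoters (24%) and in 25.2% of all promoters, and the KLF letters CACCC in 14 (56%) and in 52.0%. Each of these short motifs is common in promoters at large. A match is a description of letters and shows no binding.

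After TAC in shControl, most measured endothelial genes were higher. Of the 36 measured members 30 rose, 0 fell and 6 did not pass the test, at an adjusted p under 0.05 over all probes. Among all 8746 genes 11.4% rose in this comparison. The median log2 difference of the members, TAC minus sham, was 1.45, against -0.04 over all genes. All 3 TAC shControl arrays lay above all 3 sham shControl arrays for 31 members, against 19.2% of all genes. Members that were seen only on TAC shControl arrays had to differ, and among the 26 members detected on all 12 arrays 20 rose, with a median of 1.58. Without array 1 of TAC shControl 32 members rose, with a median of 1.71, and over the 12 fits that leave out 1 array each the count was 20 to 32. Over the same 12 fits 601 to 1039 of all 8746 genes rose. By role, 9 of 9 junction and surface adhesion genes rose, 6 of 7 receptors and receptor partners, 2 of 3 secreted proteins, 6 of 8 transcription factors, 4 of 4 signalling genes and 3 of 4 capillary transport and permeability genes, whereas the lymphatic receptor gene Lyve1 did not pass the test.

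**Figure D1:**
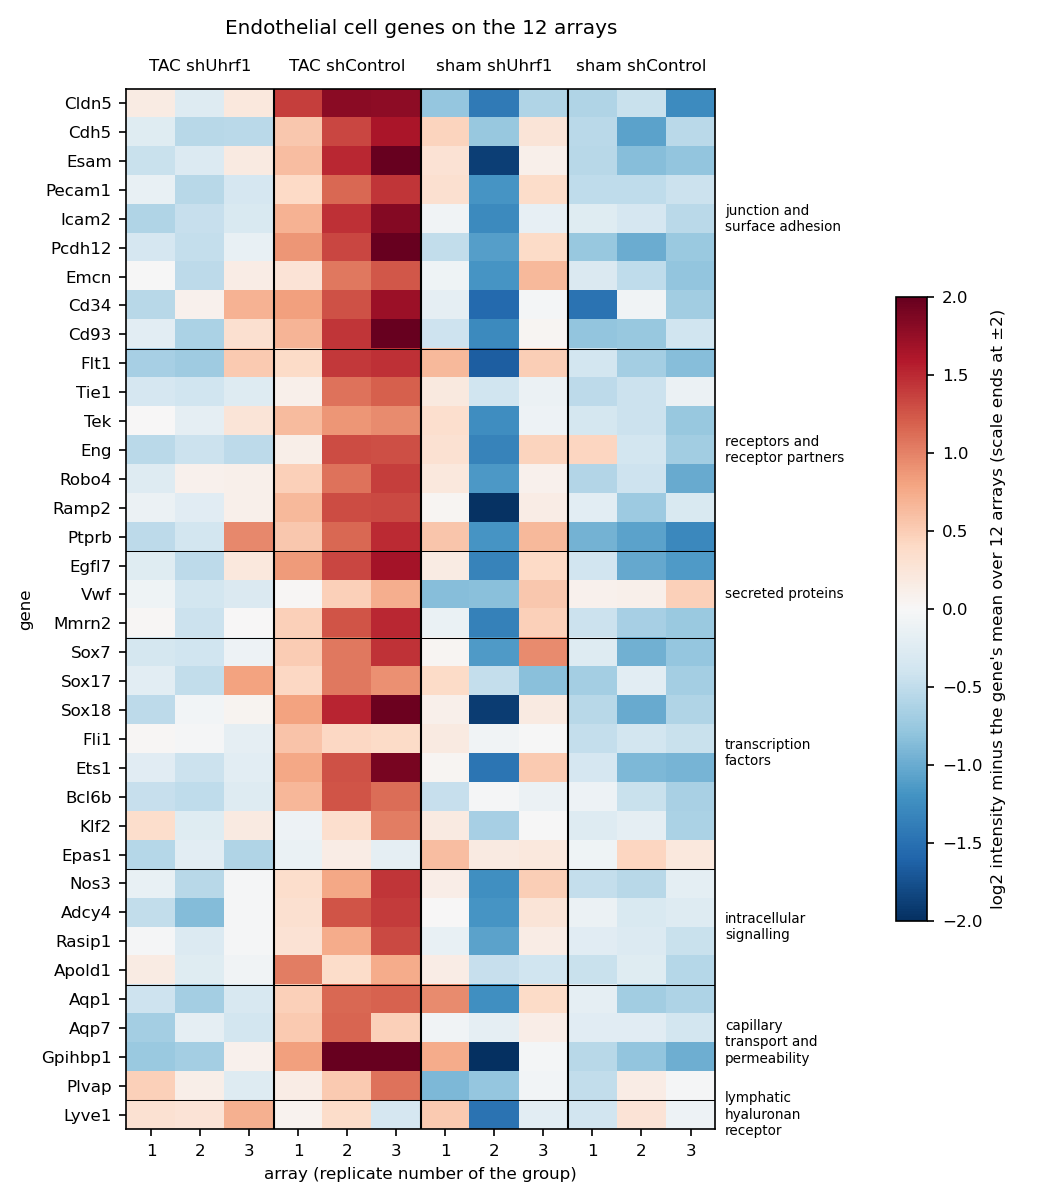
Each row is 1 of the 36 measured endothelial cell genes, ordered by role, and each column 1 of the 12 arrays. Colour gives the log2 intensity minus the gene's mean over the 12 arrays, red for higher and blue for lower, and values past 2 in either direction have the end colour. The TAC shControl arrays are red for most genes, array 1 less so than arrays 2 and 3, and array 2 of sham shUhrf1 is the bluest column.

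Junction and adhesion genes hold endothelial cells to each other and to blood cells. Cldn5, the tight junction protein claudin-5, had log2 intensities of 7.25, 6.82 and 7.29 on the TAC shUhrf1 arrays, 8.46, 8.87 and 8.86 on the TAC shControl arrays, 6.30, 5.66 and 6.48 on the sham shUhrf1 arrays and 6.48, 6.63 and 5.81 on the sham shControl arrays. The TAC shControl arrays were above the other 9, and the TAC shUhrf1 arrays lay between them and both sham groups without overlap. Cldn5 was 5.36-fold higher after TAC in shControl (log2 difference 2.42 ± 0.25, SE, adjusted p = 0.000138). Cdh5, VE-cadherin of the adherens junctions, had 6.27, 5.97 and 5.97 on the TAC shUhrf1 arrays, 7.05, 7.86 and 8.15 on the TAC shControl arrays, 6.95, 5.76 and 6.78 on the sham shUhrf1 arrays and 5.98, 5.45 and 5.98 on the sham shControl arrays. Only the TAC shControl group was apart from all others, and Cdh5 was 3.69-fold higher in it than in sham shControl (1.88 ± 0.32, adjusted p = 0.00225). For Esam, an adhesion molecule of tight junctions, the values were 8.53, 8.70 and 9.16 on the TAC shUhrf1 arrays, 9.60, 10.49 and 11.07 on the TAC shControl arrays, 9.26, 7.09 and 9.07 on the sham shUhrf1 arrays and 8.42, 8.12 and 8.18 on the sham shControl arrays. TAC shControl was again the highest group and array 2 of sham shUhrf1 the lowest array, and the rise over sham shControl was 4.43-fold (2.15 ± 0.48, adjusted p = 0.00919).

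Pcdh12, a protocadherin of endothelial junctions, had 5.29, 5.16 and 5.47 on the TAC shUhrf1 arrays, 6.51, 6.97 and 8.07 on the TAC shControl arrays, 5.14, 4.53 and 6.01 on the sham shUhrf1 arrays and 4.87, 4.64 and 4.89 on the sham shControl arrays. It was detected on 0 of the 3 sham shControl arrays and on all TAC shControl arrays, and was at least 3.54-fold higher after TAC in shControl (adjusted p = 0.00158). In this and the other bounds below, the brighter group's mean is set against a floor for the dim group, which takes on each array whichever is higher, the gene's signal or the dimmest signal still detected. Icam2, an adhesion molecule that binds leukocyte integrins, had 6.64, 6.77 and 6.93 on the TAC shUhrf1 arrays, 7.93, 8.70 and 9.07 on the TAC shControl arrays, 7.17, 5.96 and 7.08 on the sham shUhrf1 arrays and 6.99, 6.89 and 6.70 on the sham shControl arrays. Its TAC shControl arrays exceeded all others, with a 3.26-fold rise (1.70 ± 0.31, adjusted p = 0.00352). Cd34, a sialomucin of capillary surfaces, had 5.54, 6.19 and 6.79 on the TAC shUhrf1 arrays, 6.92, 7.37 and 7.81 on the TAC shControl arrays, 5.91, 4.54 and 6.05 on the sham shUhrf1 arrays and 4.62, 6.02 and 5.40 on the sham shControl arrays. Arrays varied more within groups than for Icam2, but every TAC shControl array was above the other 9, and the rise was 4.06-fold (2.02 ± 0.44, adjusted p = 0.00824) with only 1 sham shControl array above the detection limit. The lectin-like receptor Cd93 had 8.12, 7.69 and 8.64 on the TAC shUhrf1 arrays, 9.0, 9.75 and 10.31 on the TAC shControl arrays, 7.90, 7.05 and 8.36 on the sham shUhrf1 arrays and 7.53, 7.56 and 7.93 on the sham shControl arrays. TAC shControl was apart from every other group, by 4.04-fold from sham shControl (2.01 ± 0.36, adjusted p = 0.00302). Pecam1 (CD31) and Emcn (endomucin) completed the group with log2 differences of 1.47 and 1.39.

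Receptors and their partners receive the growth and guidance signals of vessels. Ptprb, the phosphatase VE-PTP that acts on Tek and VE-cadherin, had 6.90, 7.05 and 8.39 on the TAC shUhrf1 arrays, 7.96, 8.57 and 8.92 on the TAC shControl arrays, 7.98, 6.25 and 8.08 on the sham shUhrf1 arrays and 6.49, 6.36 and 6.13 on the sham shControl arrays. The sham shControl group was low and even, whereas in sham shUhrf1 arrays 1 and 3 were above it and array 2 within it, and the TAC response in shControl was 4.46-fold (2.16 ± 0.47, adjusted p = 0.00788). Tie1, a receptor tyrosine kinase that pairs with Tek, had 5.08, 5.01 and 5.16 on the TAC shUhrf1 arrays, 5.51, 6.51 and 6.62 on the TAC shControl arrays, 5.62, 5.01 and 5.30 on the sham shUhrf1 arrays and 4.89, 4.98 and 5.30 on the sham shControl arrays. It was detected on 0 sham shControl arrays and was at least 1.81-fold higher after TAC in shControl (adjusted p = 0.00857). Flt1, a VEGF receptor, rose by 1.72 on the log2 scale (adjusted p = 0.039), Tek, the angiopoietin receptor, by 1.33, the guidance receptor Robo4 by 1.66 and Ramp2, a partner of the adrenomedullin receptor, by 1.51. Eng, endoglin, a co-receptor for TGF-beta ligands, had 6.85, 6.97 and 6.87 on the TAC shUhrf1 arrays, 7.52, 8.70 and 8.69 on the TAC shControl arrays, 7.71, 6.07 and 7.85 on the sham shUhrf1 arrays and 7.83, 7.04 and 6.71 on the sham shControl arrays. Array 1 of TAC shControl lay among the sham shControl arrays, and the difference of 1.11 ± 0.44 did not pass (adjusted p = 0.0994).

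Of the secreted proteins, Egfl7, a matrix-bound factor of vessel growth, had 9.39, 9.11 and 9.85 on the TAC shUhrf1 arrays, 10.48, 10.97 and 11.30 on the TAC shControl arrays, 9.79, 8.30 and 10.03 on the sham shUhrf1 arrays and 9.24, 8.61 and 8.50 on the sham shControl arrays. Its TAC shControl arrays were above all others, 4.38-fold higher than in sham shControl (2.13 ± 0.39, adjusted p = 0.00332). Mmrn2, an endothelial matrix protein that binds Cd93, rose by 1.69 on the log2 scale. Vwf, the clotting protein von Willebrand factor, had 8.11, 7.82 and 7.91 on the TAC shUhrf1 arrays, 8.22, 8.67 and 8.92 on the TAC shControl arrays, 7.35, 7.37 and 8.73 on the sham shUhrf1 arrays and 8.28, 8.30 and 8.67 on the sham shControl arrays. TAC and sham overlapped with each hairpin, and the TAC response in shControl was 0.19 ± 0.31 (adjusted p = 0.723). The TAC shUhrf1 arrays lay below all arrays of both shControl groups, but the difference between the hairpins after TAC did not pass (adjusted p = 0.269).

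Transcription factors of the SOX and ETS families set endothelial identity. Sox18, a SOX factor of endothelial and lymphatic development, had 6.32, 6.80 and 6.90 on the TAC shUhrf1 arrays, 7.66, 8.37 and 8.82 on the TAC shControl arrays, 6.96, 4.95 and 7.03 on the sham shUhrf1 arrays and 6.30, 5.84 and 6.25 on the sham shControl arrays. It was 4.45-fold higher after TAC in shControl (2.15 ± 0.45, adjusted p = 0.00702), and its relatives Sox7 and Sox17 rose by 1.66 and 1.32 on the log2 scale, Sox17 being detected on 0 sham shControl arrays, with a bound of at least 1.61-fold. Ets1, a founding member of the ETS family, had 7.30, 7.09 and 7.32 on the TAC shUhrf1 arrays, 8.31, 8.80 and 9.42 on the TAC shControl arrays, 7.57, 6.07 and 8.05 on the sham shUhrf1 arrays and 7.19, 6.63 and 6.61 on the sham shControl arrays. All TAC shControl arrays were higher than the other 9, and the rise was 4.10-fold (2.04 ± 0.41, adjusted p = 0.00537). Bcl6b, a zinc finger repressor, had 4.52, 4.47 and 4.73 on the TAC shUhrf1 arrays, 5.65, 6.24 and 6.10 on the TAC shControl arrays, 4.53, 4.95 and 4.86 on the sham shUhrf1 arrays and 4.89, 4.54 and 4.33 on the sham shControl arrays. It was detected on the 3 TAC shControl arrays and on no other, and was at least 1.56-fold higher there than in sham shControl (adjusted p = 0.000679). Fli1, an ETS factor of endothelial and blood cells, had 4.80, 4.76 and 4.60 on the TAC shUhrf1 arrays, 5.35, 5.20 and 5.16 on the TAC shControl arrays, 4.97, 4.71 and 4.78 on the sham shUhrf1 arrays and 4.31, 4.41 and 4.34 on the sham shControl arrays. It too was detected on TAC shControl arrays alone, at a level so near the limit that no fold is given (adjusted p = 0.00102).

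A pair of transcription factors did not pass. Klf2, which blood flow induces in endothelial cells, had 9.23, 8.64 and 9.06 on the TAC shUhrf1 arrays, 8.78, 9.22 and 9.90 on the TAC shControl arrays, 9.07, 8.21 and 8.87 on the sham shUhrf1 arrays and 8.62, 8.70 and 8.24 on the sham shControl arrays. Although every TAC shControl array was above every sham shControl array, the difference was 0.78 ± 0.28 (adjusted p = 0.0738). Epas1, the hypoxia-inducible factor HIF-2 alpha, had 5.60, 5.96 and 5.57 on the TAC shUhrf1 arrays, 6.04, 6.31 and 5.98 on the TAC shControl arrays, 6.78, 6.35 and 6.38 on the sham shUhrf1 arrays and 6.08, 6.60 and 6.38 on the sham shControl arrays. The shControl groups overlapped, at a difference of -0.24 ± 0.18 (adjusted p = 0.397).

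All 4 measured signalling genes rose. Nos3, the endothelial nitric oxide synthase, rose by 1.26 on the log2 scale, the adenylyl cyclase gene Adcy4 by 1.22, Rasip1, a Ras-interacting protein needed for vessel lumens, by 1.10, and Apold1, an early response gene of vessels, by 1.13, for which the bound was at least 1.66-fold. Among the genes of capillary transport, Gpihbp1, which carries lipoprotein lipase to the capillary lumen, had 6.93, 6.98 and 7.76 on the TAC shUhrf1 arrays, 8.49, 9.72 and 9.73 on the TAC shControl arrays, 8.41, 5.66 and 7.62 on the sham shUhrf1 arrays and 7.12, 6.87 and 6.70 on the sham shControl arrays. TAC shControl was the highest group, with array 1 close to array 1 of sham shUhrf1, and the rise was 5.34-fold (2.42 ± 0.54, adjusted p = 0.0097). Aqp7, a channel for water and glycerol, had 4.55, 5.04 and 4.86 on the TAC shUhrf1 arrays, 5.75, 6.40 and 5.70 on the TAC shControl arrays, 5.16, 5.05 and 5.36 on the sham shUhrf1 arrays and 5.0, 4.99 and 4.86 on the sham shControl arrays. It was detected on 0 sham shControl arrays and was at least 1.5-fold higher after TAC in shControl (adjusted p = 0.0046), and the water channel gene Aqp1 rose by 1.43. Plvap, which forms the diaphragms of endothelial caveolae and fenestrae, had 7.49, 7.14 and 6.76 on the TAC shUhrf1 arrays, 7.16, 7.54 and 8.10 on the TAC shControl arrays, 6.12, 6.24 and 6.97 on the sham shUhrf1 arrays and 6.53, 7.16 and 6.99 on the sham shControl arrays. Groups overlapped and the difference was 0.71 ± 0.28 (adjusted p = 0.103). Lyve1, a hyaluronan receptor of lymphatic vessels that some cardiac macrophages carry as well, had 7.59, 7.56 and 7.98 on the TAC shUhrf1 arrays, 7.34, 7.64 and 6.94 on the TAC shControl arrays, 7.80, 5.80 and 7.06 on the sham shUhrf1 arrays and 6.89, 7.55 and 7.18 on the sham shControl arrays. No order of the shControl groups was seen (0.10 ± 0.38, adjusted p = 0.885).

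**Figure D2:**
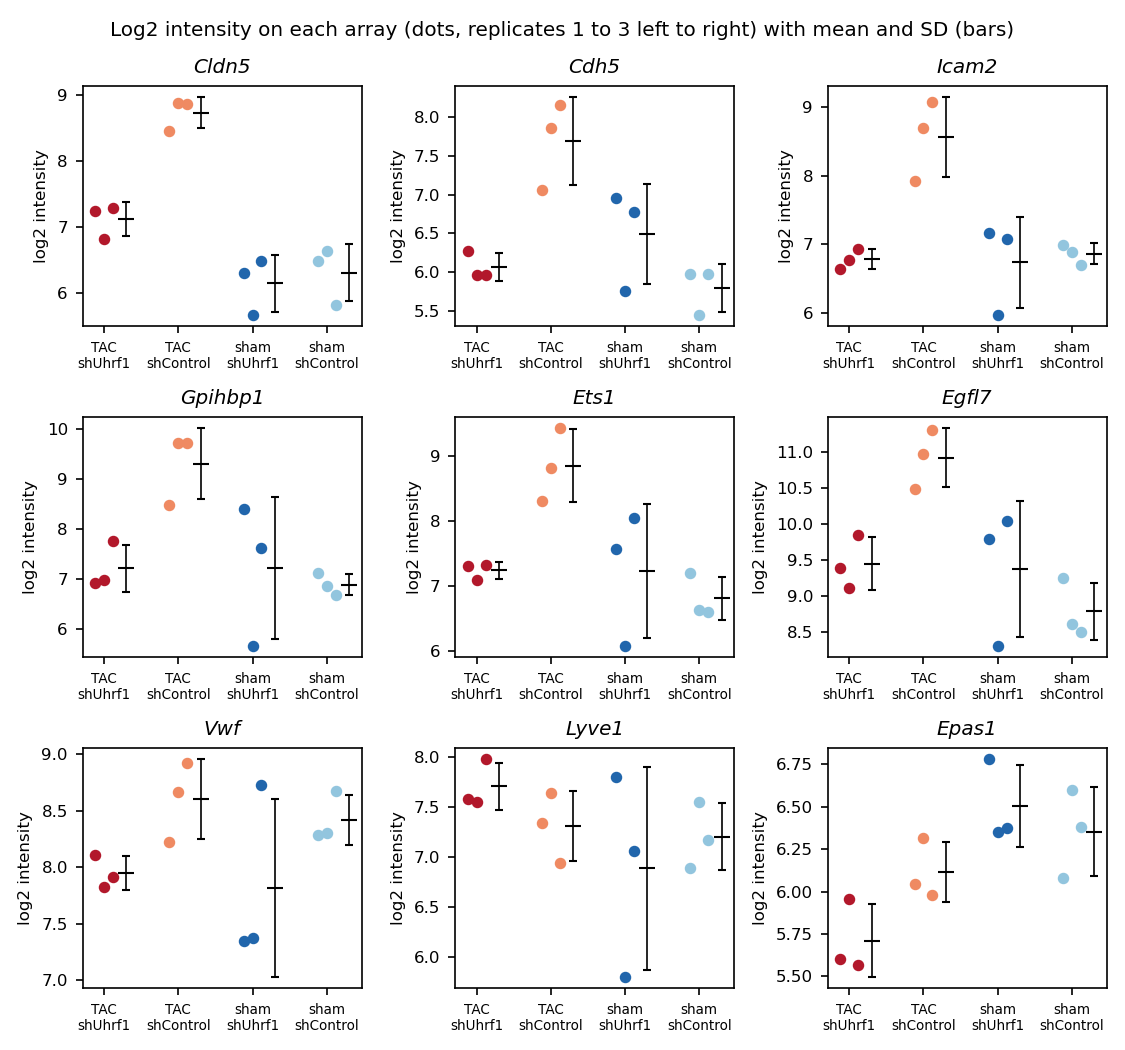
Log2 intensity of 9 endothelial genes on each of the 12 arrays. Dots are arrays 1 to 3 of a group from left to right, and bars give the mean and SD of the 3. In Cldn5, Cdh5, Icam2, Gpihbp1, Ets1 and Egfl7 the 3 TAC shControl arrays are above all others. Vwf and Lyve1 overlap between TAC and sham with each hairpin, and Epas1 is lowest in TAC shUhrf1.

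Further probes of a gene served as a second reading. Of the 36 measured members 11 had more than 1 measured probe, and the further probes had the same sign as the chosen one for TAC in shControl. The further probes of Adcy4, Aqp1, Aqp7 and Nos3 did not pass in that comparison, with log2 differences of 0.62 for Adcy4, 0.99 and 0.91 for Aqp1, 0.51 for Aqp7 and 0.86 and 0.61 for Nos3. Those of Cd93, Cdh5, Egfl7, Gpihbp1, Pecam1, Sox17 and Sox7 passed, with differences between 0.80 for Sox17 and 2.43 for Gpihbp1.

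In cells with shUhrf1, most endothelial genes, like most genes at large, showed no difference between TAC and sham that passed the test. Of the 36 measured members 1 rose and 1 fell, beside 3.96% of all genes that rose and 1.59% that fell. Both counts are near these shares. The median log2 difference was 0.08, against 0.01 over all genes. The TAC shUhrf1 arrays were above all sham shUhrf1 arrays for 1 member (15.6% of all genes) and below them for 2 (13.2% of all genes). The member that rose was Cldn5, whose 3 TAC shUhrf1 values given above exceed the 3 sham shUhrf1 values (1.96-fold, 0.97 ± 0.25, adjusted p = 0.0433). Epas1 fell, with all 3 TAC shUhrf1 arrays below the 3 sham shUhrf1 arrays (1.73-fold lower, -0.79 ± 0.18, adjusted p = 0.0271). Both calls are close to the threshold. Without sham shUhrf1 array 2 neither passed (Cldn5 0.73, adjusted p = 0.161, and Epas1 -0.87, adjusted p = 0.0642), and the median of the members was -0.33. Over all alternatives the adjusted p ranged between 0.00335 and 0.165 for Cldn5 and between 0.0227 and 0.204 for Epas1.

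The choice of scale moved this comparison for all genes alike. When each array was scaled by its median instead of by quantiles, all genes shifted by a median of 0.45 on the log2 scale, and the members' median of 0.53 was 0.08 above that shift. Cldn5, at 1.44, was above that shift, and Epas1, at -0.38, was below it and did not pass. The same scaling shifted all genes by 0.19 for TAC in shControl, where the members' median was 1.67, so that the members stood 1.48 above the shift. Genes higher and lower at the threshold were then 13.7% and 0.823% of all genes in that comparison, and 22.9% and 0.149% for TAC in shUhrf1.

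The 95% intervals leave room for moderate changes of single genes in the shUhrf1 cells. For Gpihbp1 the TAC response in shUhrf1 was -0.01 ± 0.54 with an interval of -1.19 to 1.16, and for Ets1 it was 0.01 ± 0.41 with -0.87 to 0.89. Cdh5 had -0.43 ± 0.32 (-1.11 to 0.25). Icam2, with tighter arrays, had 0.05 ± 0.31 (-0.63 to 0.72). Plvap and Lyve1 were among the highest responses in shUhrf1, at 0.69 ± 0.28 and 0.82 ± 0.38, and neither passed (adjusted p = 0.177 and adjusted p = 0.231).

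**Figure D3:**
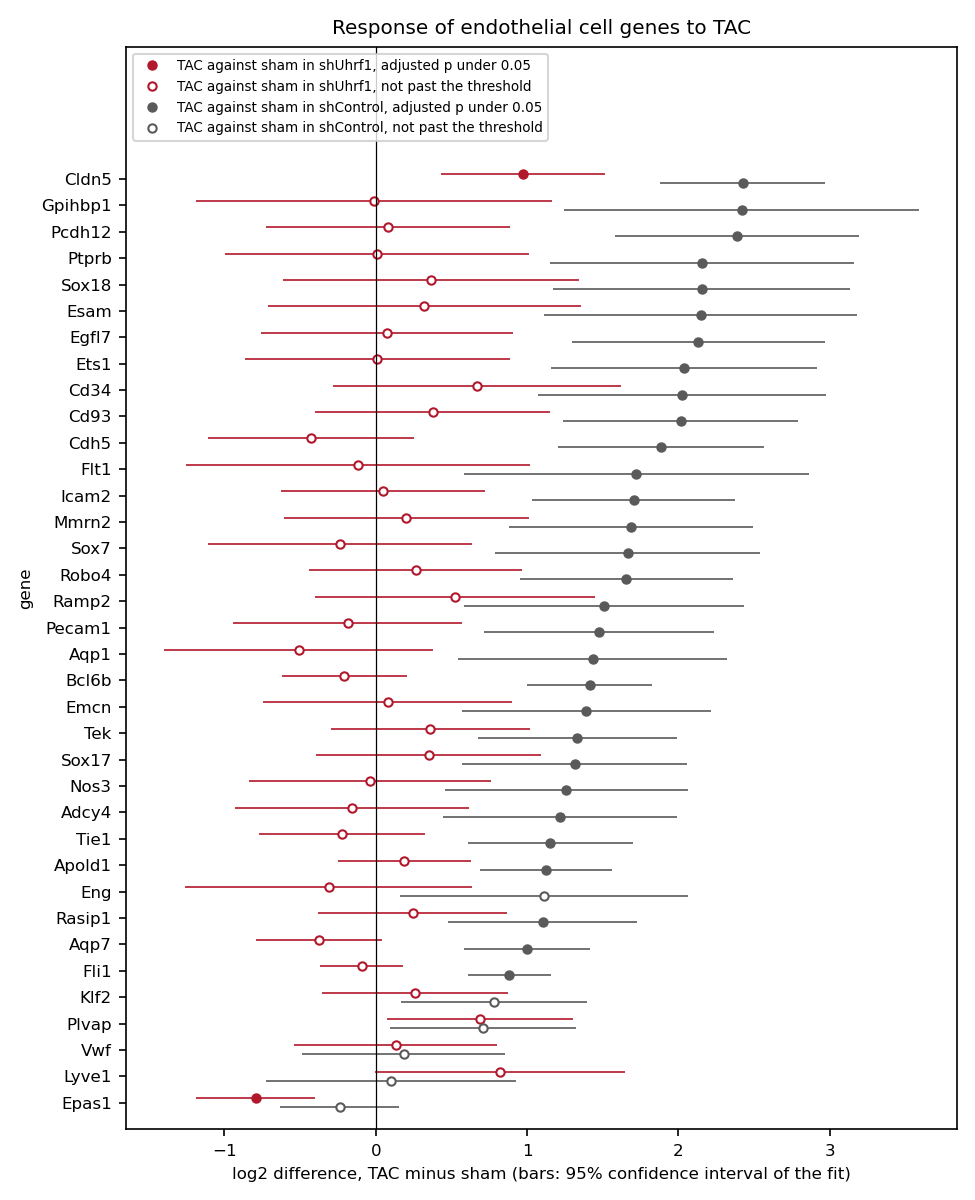
Log2 difference between TAC and sham for the 36 measured endothelial genes, in shUhrf1 (red, upper of each pair) and in shControl (grey, lower), with the 95% confidence interval of the fit. Filled dots have an adjusted p under 0.05. In shControl 30 filled dots lie right of 0, and in shUhrf1 only Cldn5 and Epas1 are filled, on opposite sides of 0.

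After TAC, some endothelial genes were lower with shUhrf1 than with shControl. Of the 36 measured members 10 fell, 0 rose and 26 did not pass, and 1.36% of all genes fell. The median log2 difference, shUhrf1 minus shControl, was -1.20, against 0.01 over all genes. The TAC shUhrf1 arrays were below all TAC shControl arrays for 30 members, against 10.7% of all genes. The comparison shares its TAC shControl arrays with the comparison of TAC and sham in shControl, so the 2 sets of differences are not independent. Among the 26 members detected on all arrays 5 fell, with a median of -1.31.

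Of the 10 that fell, 5 were junction and adhesion genes. Cldn5 was 3.05-fold lower with shUhrf1 (-1.61 ± 0.25, adjusted p = 0.0138), Icam2 3.44-fold lower (-1.78 ± 0.31, adjusted p = 0.016) and Cdh5 3.06-fold lower (-1.62 ± 0.32, adjusted p = 0.0247). Pcdh12 was 3.68-fold lower (-1.88 ± 0.37, adjusted p = 0.0263) and Cd93 2.91-fold lower (-1.54 ± 0.36, adjusted p = 0.0406). On each of these 5 genes the 3 TAC shUhrf1 arrays were below the 3 TAC shControl arrays. Tie1 fell by 1.13 on the log2 scale (adjusted p = 0.0362), Aqp7 by 1.13 (adjusted p = 0.016) and Adcy4 by 1.45 (adjusted p = 0.0478). The repressor gene Bcl6b, detected on 0 TAC shUhrf1 arrays, was at least 1.99-fold lower (adjusted p = 0.00823), and Fli1, likewise undetected, at least 1.17-fold lower (adjusted p = 0.0497). These 2 genes were measured only through the TAC shControl arrays, so a lower level in TAC shUhrf1 was built into their choice, and without them 8 members fell.

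Members with equal or larger differences did not pass where the spread, estimated over all 4 groups, was larger. For Gpihbp1, Sox18, Ets1 and Esam the SD was largest in sham shUhrf1 (1.42, 1.18, 1.03 and 1.20), a group outside this comparison. Gpihbp1 had the largest difference of the members, -2.09 ± 0.54 (adjusted p = 0.0582), Sox18 had -1.61 ± 0.45 (adjusted p = 0.0746), Ets1 -1.61 ± 0.41 (adjusted p = 0.0524) and Esam -1.59 ± 0.48 (adjusted p = 0.0925). The second measured probes of Egfl7, Gpihbp1 and Sox7 passed, at -1.70 (adjusted p = 0.0287), -2.10 (adjusted p = 0.0288) and -1.41 (adjusted p = 0.0437), while the probes chosen for these genes did not. The reverse was seen in members that fell. Second probes of Cd93 (-1.18, adjusted p = 0.0521), Aqp7 (-0.66, adjusted p = 0.147) and Adcy4 (-0.63, adjusted p = 0.231) did not pass, and that of Cdh5 did (-1.48, adjusted p = 0.016). Lyve1 alone was above 0, at 0.40 ± 0.38 (adjusted p = 0.623), and Klf2, Plvap and Vwf had differences that did not pass, of -0.32, -0.47 and -0.66.

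How many members passed after TAC rests on single arrays, and so does the count over all genes. With all 12 arrays 119 of 8746 genes fell. The member count was 1 without array 2 of TAC shControl (2 of all genes fell) or without array 3 of TAC shUhrf1 (6 genes). It was 3 without array 3 of TAC shControl (16 genes) or without array 2 of TAC shUhrf1 (14 genes). Without array 1 of TAC shUhrf1 it was 6 (67 genes). Without array 1 of TAC shControl it was 12 (182 genes), with a median of -1.49. It was 25 without array 2 of sham shUhrf1, which enters this comparison only through the shared estimate of the spread, and then 2.6% of all genes fell. The median of the members ranged between -1.49 and -1.06 over the 12 fits that leave out 1 array each.

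Without pressure load, no endothelial gene passed the test between the hairpins, and 4 of all 8746 genes did. A count of 0 in 36 is near that share. In sham cells 0 of the 36 members differed between shUhrf1 and shControl by limma, and 3 had an unadjusted p under 0.05, all higher with shUhrf1, against 0.0457% of all genes that passed and 13.2% with an unadjusted p under 0.05. The median of the members was 0.21, and 2 members were above all sham shControl arrays in the sham shUhrf1 group, against 10.2% of all genes. Fli1 had the smallest p (adjusted p = 0.153), but it was undetected in both groups and no size is given. Ptprb had 1.11 ± 0.47 (adjusted p = 0.302), Cdh5 0.70 ± 0.32 (adjusted p = 0.348) and Vwf -0.60 ± 0.31 (adjusted p = 0.408). For Ptprb and Cdh5 arrays 1 and 3 of sham shUhrf1 were above the sham shControl arrays and array 2 was not. Without array 2 of sham shUhrf1 the median of the members was 0.61, and still 0 passed.

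The difference between the TAC responses was tested as an interaction, the response in shUhrf1 minus the response in shControl. With all 12 arrays 0 of the 36 members and 0% of all 8746 genes passed by limma, and the lowest adjusted p of a member was 0.162. The members' median was -1.41, against 0.03 over all genes, and 35 of 36 were negative, Lyve1 being the exception at 0.72 ± 0.54. An unadjusted p under 0.05 with a lower response in shUhrf1 was found for 29 members, against 5.31% of all genes. The lowest adjusted p belonged to Bcl6b and Fli1, for which no size is given because 3 of the 4 groups were not detected. Both are among the 29. They were measured only through the TAC shControl arrays, so a lower response in shUhrf1 was built into their choice. Cdh5 had -2.31 ± 0.45 (adjusted p = 0.18). Aqp7 had -1.37 ± 0.27 (adjusted p = 0.18), with 0 sham shControl arrays above the detection limit. Gpihbp1, at -2.43 ± 0.77, had the lowest interaction but 1 of the 8746 genes. Among the 10, 20, 50 and 100 genes with the lowest interaction, 3, 6, 11 and 18 were members, where members make up 36 of all 8746 genes. Bcl6b is among the 18. The members were chosen with earlier results of these data known, so these counts are no test.

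Without array 2 of sham shUhrf1, 22 of the 36 members passed with a lower response in shUhrf1, beside 1.12% of all genes. The 22 include Bcl6b and Fli1, for which a lower response was built into their choice. The median over all 36 members was then -1.82. Array 2 of sham shUhrf1 was singled out by the low values of these same members. Leaving it out raises their sham shUhrf1 mean and lowers the interaction, so these counts and p-values are no independent test. The members that passed included Cdh5 (-2.68 ± 0.37, adjusted p = 0.0155), Gpihbp1 (-3.22 ± 0.50, adjusted p = 0.0171), Ets1 (-2.60 ± 0.39, adjusted p = 0.0155), Pecam1 (-2.16 ± 0.33, adjusted p = 0.0155), Egfl7 (-2.59 ± 0.38, adjusted p = 0.0155) and Cldn5 (-1.69 ± 0.33, adjusted p = 0.0347). Plvap (-0.12 ± 0.43), Vwf (-0.28 ± 0.44) and Lyve1 (0.18 ± 0.36) did not pass. Without array 1 of TAC shControl, 3 members passed, beside 29 of all 8746 genes, and the members' median was -1.72. The other 10 fits that leave out 1 array each gave 0 members. 

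**Figure D4:**
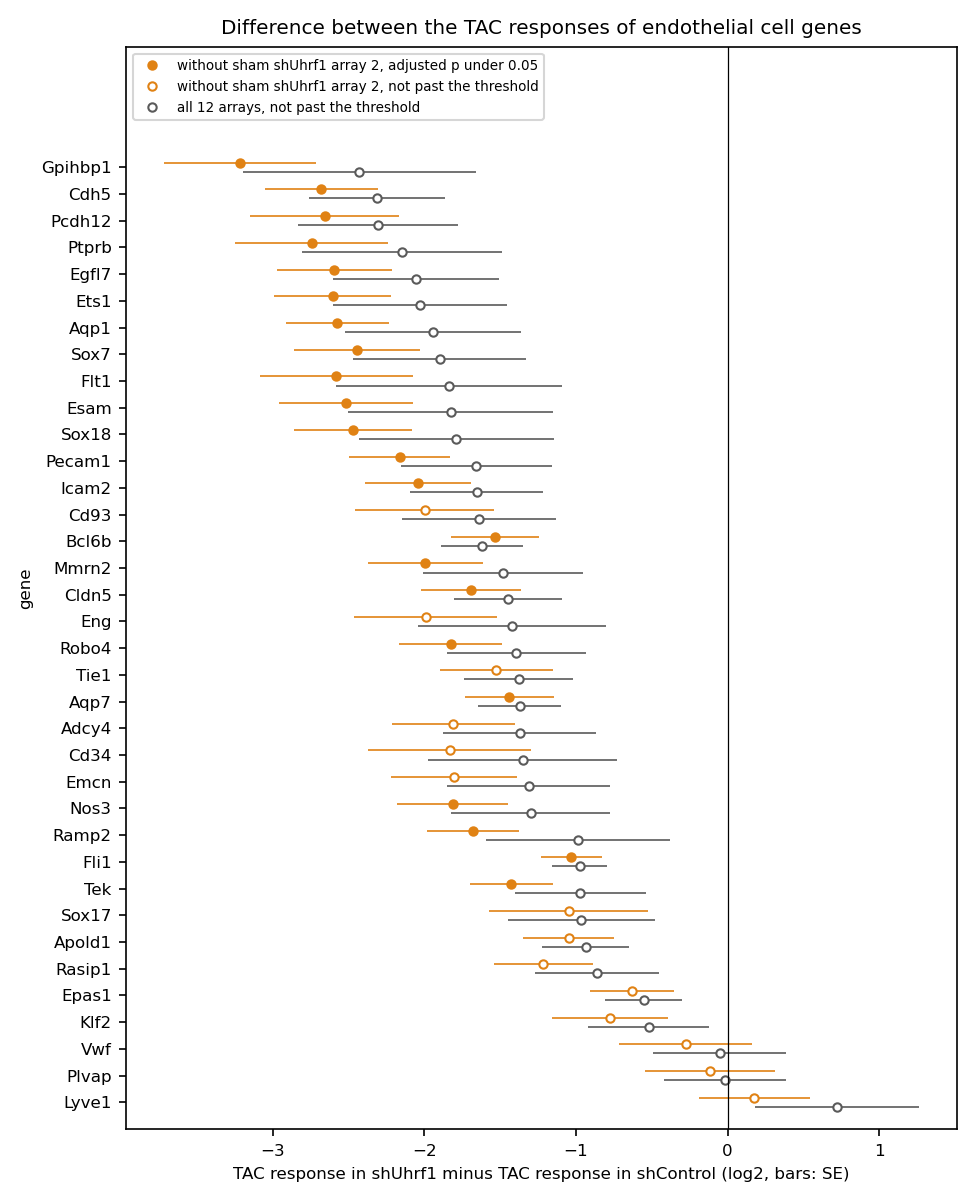
TAC response in shUhrf1 minus TAC response in shControl, on the log2 scale with its SE, for the 36 measured endothelial genes, without array 2 of sham shUhrf1 (orange, upper of each pair) and with all 12 arrays (grey, lower). Filled dots have an adjusted p under 0.05. Without that array 22 genes are filled, all left of 0, and with all arrays none is. The 22 include Bcl6b and Fli1, which were measured only through the TAC shControl arrays.

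Set over the 4 groups, 34 of the 36 members had their highest mean in TAC shControl, the exceptions being Lyve1, highest in TAC shUhrf1, and Epas1, highest in sham shUhrf1. The 34 include Bcl6b and Fli1, which were measured only through the TAC shControl arrays, so their highest group was built into their choice. The share of all genes with the highest mean in TAC shControl was not counted. The order TAC shControl, TAC shUhrf1, sham shUhrf1, sham shControl was seen in 15 members, including Ets1, Egfl7, Esam and Cd93, and the order TAC shControl, sham shUhrf1, TAC shUhrf1, sham shControl in 9, including Cdh5, Gpihbp1, Pecam1 and Nos3. In Ets1, Cdh5 and Gpihbp1 the arrays of the TAC shUhrf1 and sham shUhrf1 groups overlap, so the order of these 2 groups is not settled.

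Other genes of blood vessels were counted from lists of related pathways. Against these counts, 11.4% of all genes rose in shControl and 3.96% in shUhrf1, and in lists of 7 to 17 genes a count of 0 in shUhrf1 is near that share. Of 10 measured genes among 15 VEGF and angiopoietin ligands and co-receptors 5 rose after TAC in shControl, with a median of 0.90, and 0 in shUhrf1. They included Nrp1, a VEGF co-receptor (1.11 ± 0.17, adjusted p = 0.00126), and Aplnr, the apelin receptor (2.20 ± 0.45, adjusted p = 0.00592), whose differences in shUhrf1 were 0.02 and 0.16. Another of the 5, Vegfc, rose in shControl (1.13 ± 0.18, adjusted p = 0.00172) and had 0.56 in shUhrf1, which did not pass (adjusted p = 0.0914). With each hairpin 7 of the 10 differences were above 0, and the lowest was -0.92 in shControl and -0.81 in shUhrf1. In the Notch pathway of vessels 5 of 7 measured genes rose in shControl and 0 in shUhrf1, among them Notch4, the endothelial Notch receptor (2.09 ± 0.36, adjusted p = 0.00245), and Ephb4, a receptor of veins (0.97 ± 0.21, adjusted p = 0.00815). Notch4 was lower with shUhrf1 after TAC (-1.58 ± 0.36, adjusted p = 0.0367). Of 17 other endothelial surface and signalling genes 10 rose in shControl, led by the caveolin genes Cav2 (2.12 ± 0.30, adjusted p = 0.00093) and Cav1 (2.55 ± 0.47, adjusted p = 0.00352), and in shUhrf1 0 rose and 1, Ptprm, fell. Of 8 other endothelial transcription factors 3 rose in shControl, including Meox2 (2.25 ± 0.35, adjusted p = 0.00154) and Tcf15 (1.43 ± 0.34, adjusted p = 0.0133), a pair known to work in cardiac capillaries, and 0 in shUhrf1.

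Markers of other cells of the heart moved on the same arrays. Beside the counts below, 3.96% of all genes rose after TAC in shUhrf1 and 11.4% in shControl. After TAC 1.53% of all genes were higher with shUhrf1 and 1.36% lower. Of 10 measured among 12 fibroblast markers, Postn and Ddr2 being the unmeasured ones, 5 rose after TAC in shUhrf1 (median 1.26) and 9 in shControl (median 2.08), and 0 differed between shUhrf1 and shControl after TAC (median -0.32). Their mean deviation per array ranged between 0.41 and 1.20 in TAC shUhrf1, 0.87 and 1.31 in TAC shControl, -1.51 and -0.49 in sham shUhrf1 and -1.33 and -0.81 in sham shControl. Of 10 measured among 13 macrophage markers 5 rose in shUhrf1 (median 1.15) and 4 in shControl (median 0.82), and 1, Ctss, was higher with shUhrf1 after TAC. Their mean deviation lay between 0.16 and 0.99 in TAC shUhrf1, 0.48 and 0.62 in TAC shControl, -1.40 and -0.35 in sham shUhrf1 and -0.60 and -0.39 in sham shControl. Smooth muscle and pericyte markers, 10 measured of 12 with Tagln and Cnn1 unmeasured, had 1 rise and 1 fall in shUhrf1 and 4 rises and 1 fall in shControl, and 1, Mcam, which endothelial cells carry too, was lower with shUhrf1 after TAC. Their mean deviation lay between -0.11 and -0.08 in TAC shUhrf1, 0.10 and 0.68 in TAC shControl, -0.43 and 0.19 in sham shUhrf1 and -0.36 and -0.05 in sham shControl.

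The endothelial members had mean deviations between -0.35 and 0.02 in TAC shUhrf1, 0.50 and 1.31 in TAC shControl, -1.09 and 0.16 in sham shUhrf1 and -0.57 and -0.41 in sham shControl. After TAC the hairpins did not overlap in the mean deviation of the endothelial genes, nor in that of the smooth muscle and pericyte markers, and they overlapped in those of the fibroblast and macrophage markers. Cardiomyocyte markers kept mean deviations between -0.11 and 0.10 over the 12 arrays, and 0 of 13 passed in any of the 5 comparisons. Of the macrophage list Cd68 and Emr1 had no probe and Fcgr1 was detected on 1 array. Of 12 markers of other leukocytes 4 were measured, and 2 of these rose after TAC with both hairpins. Cd52 rose by 1.5 on the log2 scale in shUhrf1 (adjusted p = 0.00613) and by 1.20 in shControl (adjusted p = 0.00552). Laptm5 rose by 1.40 in shUhrf1 (adjusted p = 0.0322) and by 1.14 in shControl (adjusted p = 0.0323). Ptprc, Cd3e, Ms4a1, Nkg7 and Itgam were detected on 0 arrays. The part of these cell types in the endothelial results was not tested. Of 6 lymphatic endothelial markers 4 were measured, and Pdpn, which other cells of the heart also carry, rose in shUhrf1 (1.56 ± 0.30, adjusted p = 0.0142) and in shControl (1.49 ± 0.30, adjusted p = 0.00574).

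**Figure D5:**
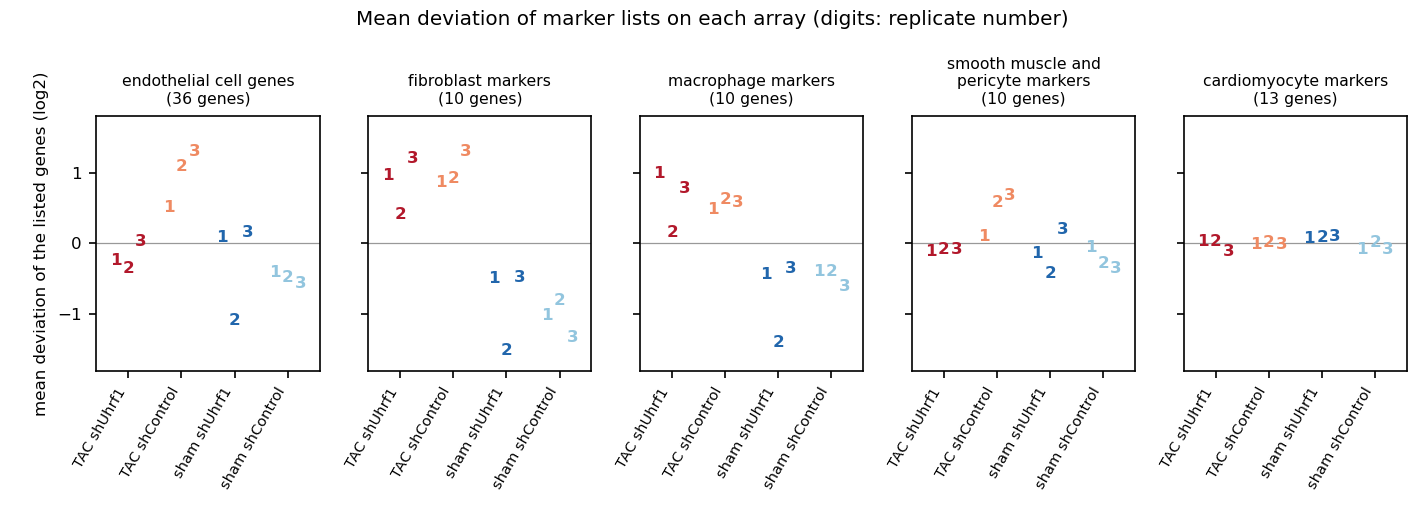
Mean deviation of the genes of 5 lists from their own 12-array means, in log2 units, on each array. Digits are the replicate numbers of the arrays, in 4 groups. Endothelial cell genes are high in TAC shControl alone, fibroblast and macrophage markers are high in both TAC groups, cardiomyocyte markers lie near 0 throughout, and array 2 of sham shUhrf1 is low for endothelial, fibroblast and macrophage genes.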

How the data were processed

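Illumina bead arrays measured biotin-labelled RNA of isolated left-ventricular cardiomyocytes, 12 arrays in 4 groups taken from the sample titles. The authors deposited linear probe intensity for every array and, as a second column per the file headers, its detection p-value. The authors' value table, used as an alternative, holds log2 values. The submitters' processing notes name lumi, and its version and settings are not known here.

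The intensities were background-corrected and quantile-normalized with limma's neqc (offset 16). The filter kept probes detected (p under 0.01) on 3 or more arrays (15118 probes, 8746 named genes), and the probe with the highest mean stood for a gene. Probe names came from GEO's platform annotation. limma 3.58.1 in R 4.3.3 was fitted with lmFit and eBayes to 12 arrays with 1 mean per group, and p-values were adjusted by Benjamini-Hochberg over all probes. Values are log2 differences ± SE. The number of arrays limits the precision.

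The members and lists were chosen with earlier results of these data known, so no test over a list is given. Values on every array are given for the 10 members with the largest difference among those called for TAC in shControl, up to 8 called in each other comparison in order of p (4 where none was called), and up to 6 members detected on all arrays but called in no comparison. From each other list up to 4 genes with the smallest p for TAC in shControl may be named. Tested members outside these are named with a log2 difference only, and Ptprm, Ctss, Mcam and Cd36 were named after their values were seen. Alternatives covered scaling, background, filter, probe choice, samples in the fit, a replicate block and each array left out.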

Additional observations from a re-analysis of the deposited data

Results flagged for a closer look

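Aqp7 was the only measured member whose arrays moved in opposite directions under TAC. All 3 TAC shUhrf1 arrays were below all sham shUhrf1 arrays (13.2% of all genes), and all 3 TAC shControl arrays were above all sham shControl arrays (19.2% of all genes). The share of all genes with both was not counted. In shUhrf1 the groups were barely apart, at 5.044 on TAC array 2 against 5.0543 on sham array 2. The fall in shUhrf1 did not pass (-0.37 ± 0.19, limma, adjusted p = 0.282). The difference between the responses was -1.37 on the log2 scale, with an adjusted p of 0.18 by limma, which did not pass. Aqp7 was detected on 1 TAC shUhrf1 array, 3 TAC shControl arrays, 2 sham shUhrf1 arrays and 0 sham shControl arrays, so part of its values lie near the detection limit. Its second measured probe had an interaction of -0.71.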

How the results depend on the processing

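The members' median kept its sign under the alternatives run in 4 of the 5 comparisons. For TAC in shUhrf1 it lay between -0.33 without array 2 of sham shUhrf1 and 0.53 with each array scaled by its median. For TAC in shControl the count was 20 to 33, a range that includes a fit with just 26 members. The median 1.45 became 1.03 by quantiles without background correction and 0.61 in the authors' value table. For TAC in shUhrf1 the count of 2 became 0 in the authors' table, with no filter, and when the fit held just the 2 groups compared. For shUhrf1 after TAC the count of 10 became 4 without the filter and 20 when the fit held just those 2 groups. Probes detected on all 12 arrays left 26 members, of which 6 passed, against 5 of the same 26 in the main fit. The median of this comparison was -0.58 in the authors' table. The interaction median was -0.72 in the authors' table. Leaving out 1 array at a time gave 0 to 2 members for TAC in shUhrf1, 1 to 25 for shUhrf1 after TAC and 0 to 22 for the interaction. In these fits 2 to 227 of all 8746 genes were lower with shUhrf1 after TAC, and 0 to 98 for the interaction. The causes of these shifts were not tested.

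Same-numbered arrays of different groups had correlations of deviations between -0.157 and 0.254, and differently numbered ones between -0.256 and 0.355. These ranges overlap, which shows no pairing of the arrays by number but cannot exclude it. With the replicate number as a block 30 members passed under TAC with shControl and 1 with shUhrf1, 11 between the hairpins after TAC, and 0 in sham and for the interaction. Of the alternative values of single named members 508 kept their side of the threshold, 59 no longer passed, 6 newly passed and 0 reversed. The slide as a block was not run, because the headers name no slide.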

Other observations

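For the 2 lists below, 11.4% of all genes rose in shControl and 3.96% in shUhrf1, and a count of 0 among 6 genes in shUhrf1 is near that share. Among 10 genes of activated endothelium 6 were measured. Of these, including Plat, the tissue plasminogen activator (1.83 ± 0.33, adjusted p = 0.00314), and Icam1, a leukocyte adhesion molecule (0.96 ± 0.30, adjusted p = 0.0403), 0 passed after TAC in shUhrf1 (median 0.57) and 2 rose in shControl (median 0.76). The differences of all 6 were above 0 with both hairpins. Of 6 measured genes of endothelial fatty acid uptake 0 passed in shUhrf1 and 2, Meox2 and Pparg, rose in shControl, whereas Cd36, the fatty acid transporter, had -0.35 ± 0.31 in shControl (adjusted p = 0.467). Meox2 is also counted among the other endothelial transcription factors above.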
